A study of Mus musculus with 10 samples.

Results

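The genes of MHC class I antigen presentation were examined in neuroblastoma tumours of TH-MYCN mice before and during treatment. The set holds 10 of the 54446 genes in the count files, chosen by symbol: the class I heavy chains H2-K1 and H2-D1, the light chain B2m, the peptide loading genes Tap1, Tap2 and Tapbp, the immunoproteasome subunits Psmb8, Psmb9 and Psmb10, and the transactivator Nlrc5. TH-MYCN mice carry a human MYCN transgene under the promoter of tyrosine hydroxylase, so all groups share the transgene and tumours arise in cells of the sympathetic lineage. Polyadenylated RNA was sequenced in 3 libraries of untreated tumours (numbered 1 to 3), 3 libraries after 24 h of treatment (2 to 4) and 4 libraries after 5 days of treatment (1 to 4). Both treated groups received MLN8237, which inhibits Aurora-A, a kinase of mitosis, and AZD6738, which inhibits ATR, a kinase of the response to replication stress. The titles name a combination, whereas the design text joins the drugs with "or". The sources used here do not give dose, age, sex, strain background or H2 haplotype. The labels also leave unsaid whether replicates are different animals, so p-values below describe the spread among these libraries, which may be technical in part.

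MHC class I molecules display peptides of proteins made inside the cell, and CD8 T cells read them. The proteasome cuts the peptides, and in the immunoproteasome the subunits encoded by Psmb8, Psmb9 and Psmb10 take the places of the constitutive subunits encoded by Psmb5, Psmb6 and Psmb7. The transporter made of TAP1 and TAP2 carries peptides into the endoplasmic reticulum, where tapasin, encoded by Tapbp, helps load them onto a heavy chain held by beta-2 microglobulin. Most of these genes are induced by interferons, and NLRC5 acts on the promoters of class I genes. Neuroblastoma cells, and MYCN-amplified ones in particular, are known for low surface class I.

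Libraries held 5576926 to 5696436 counts. 5-day libraries 1 and 2 stood apart from the rest in cell type markers. In 5-day library 1, 13 markers of the adrenergic tumour cell, among them Th and Chgb, summed to a normalised read count of 723 CPM (scaled by TMM), against 2083 to 3350.1 CPM in the other 9 libraries. All 13 of these markers had counts, and Chgb led the sum. Macrophage markers summed to 14608 CPM in this library and to 618 to 1734 CPM in the others, fibroblast markers to 17556 CPM against 209.9 to 2486 CPM, and adipocyte markers to 11916 CPM against 67.9 to 1501 CPM. 5-day library 2 held 1616 CPM of adrenal cortex markers, against 95.8 CPM in 5-day library 3 and 7.64 to 12.7 CPM in the other libraries. It also held 228 CPM of the hepatocyte gene Alb, against at most 3.05 CPM elsewhere (Alb was picked after its values were seen). Apoa1, Ttr, Serpina1a and Cyp3a11 were highest there too, but Hp, which led the hepatocyte sum, was not. That sum was 423 CPM in library 2, against 2553 CPM in 5-day library 1 and 409 CPM in untreated library 3. In bulk RNA a smaller share of tumour cells and less of a transcript in each cell cannot be told apart. For the genes of the set, the fits of the 5-day group are therefore given with and without library 1. The fit against untreated tumours is also given without libraries 1 and 2, which keeps library 3 and its adrenal cortex markers. Some other results that use the 5-day group are given with all libraries only.

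Of the 10 genes, 8 had counts in every library and 2 were listed at 0 in all 10 libraries. The latter were B2m (chr2:122147686-122153083, plus strand, mm10) and Psmb10 (chr8:105935735-105938444, minus strand). B2m encodes the light chain that every classical class I molecule needs, and Psmb10 one of the catalytic immunoproteasome subunits. In the GENCODE M21 annotation all exon bases of B2m lie within the span of Patl2, and all exon bases of Psmb10 within that of Gm16156, each on the opposite strand. Of 1475 protein-coding genes with no exon base outside other genes, 1342 (91.0%) were listed at 0 in every library. The same held for 4.9% of 8722 protein-coding genes that overlapped another gene but kept exon bases of their own, and for 23.8% of 11721 without any overlap. The zeros of B2m and Psmb10 are thus not read as absence of the transcript, and neither gene enters a comparison.

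The other 8 genes keep part of their exons to themselves. H2-K1 and H2-D1 share no base with another gene, and Nlrc5, Tap1 and Psmb9 have 99.1%, 96.1% and 94.2% of their exon bases outside other genes. For Tapbp the share is 66.9%, for Psmb8 44.5% and for Tap2 42.6%, so levels of these 3 may be understated. Heavy chain genes are also similar in sequence: 14.3% of the 50-base windows of H2-D1 transcripts and 8.1% of those of H2-K1 occur in another gene, mostly other H2 genes. Reads from such windows may have been split or dropped, and the sources used here do not say how reads with several alignments were treated.

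The heavy chains were by far the most abundant of the genes. Per kilobase of exon outside other genes, untreated tumours held 41.9 ± 11.1 CPM (SD, n = 3) of H2-D1, 20.2 ± 7.22 CPM of H2-K1 and 8.56 ± 2.66 CPM of Tapbp. Tap2 followed with 1.99 ± 0.867 CPM per kilobase, Tap1 with 0.785 ± 0.333, Psmb8 with 0.619 ± 0.267, Psmb9 with 0.456 ± 0.331 and Nlrc5 with 0.228 ± 0.0900. From Tap1 down to Nlrc5 each gene lay within the larger SD of its neighbour in this order. Over all exon bases instead, Psmb8 stood behind Psmb9, with 0.275 against 0.429 CPM per kilobase in untreated tumours.

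H2-K1 (chr17:33996017-34000347, minus strand), a classical heavy chain of the mouse, was at 59.4, 38.1 and 80.5 CPM in untreated libraries 1, 2 and 3. At 24 h it was at 40.9, 137 and 67.6 CPM in libraries 2, 3 and 4, and at 5 days at 1667, 152, 104 and 44.3 CPM in libraries 1, 2, 3 and 4. Only 5-day library 1 lay far from the rest, and all 3 groups overlapped. H2-D1 (chr17:35262730-35267499, plus strand), the second classical heavy chain, showed the same order of libraries within each group. It was at 102, 82.9 and 139 CPM in untreated tumours, at 105, 196 and 119.9 CPM at 24 h and at 2339.6, 233, 177 and 89.4 CPM at 5 days. Its groups overlapped as well, since 5-day library 4 lay below 2 of the 3 untreated libraries. H2-D1 stayed above H2-K1 in every library, by a factor of 1.40 in 5-day library 1 and of up to 2.57 in 24 h library 2, in CPM not divided by length.

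Because H2-K1 and H2-D1 moved together over the libraries, the sequence before their transcription starts is shown, with that of B2m, whose RNA could not be counted here. RefSeq promoter sequences of GRCm38.p6 were at hand for 8 of the 10 genes, all but Tap2 and Nlrc5, and the 250 bases before each start were searched on both strands. These starts are those of RefSeq, whereas the gene spans in this text are those of GENCODE. The windows of H2-D1, Tapbp, Psmb8 and Psmb9 lie inside the GENCODE spans of these genes. The motifs were the core of the interferon-stimulated response element (GAAANNGAAA), that of the gamma-activated site (TTCNNNGAA), the NF-kB site, CCAAT and TGACG, the core of the X2 box. In the windows below capitals mark these motifs. H2-K1 is chr17:34000348-34000597 on the minus strand and B2m is chr2:122147437-122147685 on the plus strand.
H2-K1: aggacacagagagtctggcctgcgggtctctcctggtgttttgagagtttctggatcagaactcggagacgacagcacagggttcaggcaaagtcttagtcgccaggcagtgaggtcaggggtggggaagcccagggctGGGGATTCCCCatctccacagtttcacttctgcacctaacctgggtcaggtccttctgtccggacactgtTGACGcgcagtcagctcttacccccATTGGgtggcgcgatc
B2m: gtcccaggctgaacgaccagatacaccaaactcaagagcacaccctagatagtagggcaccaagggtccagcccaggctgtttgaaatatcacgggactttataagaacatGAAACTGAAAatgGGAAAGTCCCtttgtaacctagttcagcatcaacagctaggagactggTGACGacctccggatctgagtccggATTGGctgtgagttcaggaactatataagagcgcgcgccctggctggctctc
Both windows hold an NF-kB site, then TGACG, then CCAAT on the reverse strand, and the B2m window also holds the interferon-stimulated core. The NF-kB site occurred in 7.01% of 27025 RefSeq promoters searched in the same way, TGACG in 17.9%, CCAAT in 34.5%, the interferon-stimulated core in 3.04% and the gamma-activated core in 7.18%. Such matches are descriptions of the letters and do not show binding. The patterns are fixed, so a window without a match may still hold a variant of the element.

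The surroundings of TGACG, where NLRC5 and its partners are known to act, can be compared over 30 bases. The stretches are chr17:34000371-34000400 (minus strand) for H2-K1, chr17:35262981-35263010 (plus strand) for H2-D1, chr2:122147597-122147626 (plus strand) for B2m and chr17:34187458-34187487 (plus strand) for Tap1, with TGACG in capitals.
H2-K1: tccggacactgtTGACGcgcagtcagctct
H2-D1: ccgggacactgaTGACGcgctggcaggtct
B2m: ctaggagactggTGACGacctccggatctg
Tap1: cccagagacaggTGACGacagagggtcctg
H2-K1 and H2-D1 were identical at 24 of the 30 bases, B2m and Tap1 at 20. The Tap1 stretch is also the one found before the RefSeq start of Psmb9, since the RefSeq starts of these 2 genes lie next to each other in opposite directions. By their GENCODE spans the 2 genes overlap, and the stretch lies inside Psmb9. The NF-kB surroundings of H2-D1 (chr17:35262914-35262943, plus strand), cccagggctGGGGATTCCCCatctcctcag, matched those of H2-K1 at 29 of 30 bases. Of the remaining windows, that of Psmb8 held the gamma-activated core, that of Tapbp held CCAAT and no other of these motifs, and that of Psmb10 held none of them.

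Among the peptide loading genes, Tap1 (chr17:34187553-34197225, plus strand), a chain of the peptide transporter, was at 4.38, 2.27 and 5.75 CPM in untreated libraries 1 to 3. It was at 3.11, 25.3 and 8.01 CPM in 24 h libraries 2 to 4 and at 178, 9.99, 24.4 and 2.49 CPM in 5-day libraries 1 to 4. Besides 5-day library 1, 24 h library 3 and 5-day library 3 were high, and the lowest libraries of all groups lay close together. Tap2 (chr17:34203527-34216321, plus strand), the partner of Tap1, was at 3.33, 1.75 and 4.53 CPM in untreated tumours, at 2.24, 10.8 and 4.18 CPM at 24 h and at 73.5, 8.44, 6.37 and 0.889 CPM at 5 days. Tap2 was thus lower in 5-day library 4 than in any other library. Tapbp (chr17:33915899-33929292, plus strand), which encodes tapasin, was at 22.6, 13.6 and 26.1 CPM untreated, at 24.3, 53.4 and 35.7 CPM at 24 h and at 394, 39.6, 46.3 and 13.0 CPM at 5 days. Here too 5-day library 4 was the lowest of all. Tap1 exceeded Tap2 by a factor of 1.27 to 1.32 in the untreated libraries, by 1.38, 2.34 and 1.92 in 24 h libraries 2 to 4 and by 2.43, 1.18, 3.84 and 2.80 in 5-day libraries 1 to 4, in CPM not divided by length.

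The immunoproteasome genes were near the limit of detection in untreated tumours. Psmb8 (chr17:34197721-34201454, plus strand) was at 0.700, 0.698 and 1.39 CPM untreated, where 3 counts correspond to 0.527 to 0.538 CPM before scaling. It was at 0.863, 3.14 and 0.697 CPM at 24 h and at 35.3, 2.93, 2.58 and 1.60 CPM at 5 days. All 4 of its 5-day libraries lay above all untreated ones, the nearest being 1.60 against 1.39 CPM. Psmb9 (chr17:34181987-34187764, minus strand) was at 1.75, 0.349 and 2.61 CPM untreated, at 0.863, 9.61 and 2.79 CPM at 24 h and at 60.7, 4.65, 4.99 and 1.07 CPM at 5 days. Psmb9 overlapped between all groups, with 5-day library 4 inside the untreated range.

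Nlrc5 (chr8:94434356-94527272, plus strand), the transactivator of class I genes, was the only one of the 8 genes whose treated libraries all exceeded the untreated ones at both times. It was at 1.05, 2.27 and 2.44 CPM untreated, at 3.28, 8.56 and 4.18 CPM at 24 h and at 73.1, 7.41, 5.85 and 4.09 CPM at 5 days. Among genes tested, 7.11% had all 24 h libraries above all untreated ones, and 4.01% had all 5-day libraries above them. Of the 8 genes, 1 (Nlrc5) met the first condition and 2 (Nlrc5 and Psmb8) the second. Psmb8 reached the filter's minimum count of 10 only in 24 h library 3 and 5-day libraries 1 to 3, so it was tested through libraries where it was high. Its nearest values were 9 counts in 5-day library 4 and 8 counts in untreated library 3. Its place in the second count is therefore no support for a difference. Without 5-day library 1 the second count stayed at 2, against 6.64% of genes. Between 5 days and 24 h, 0 of the 8 were free of overlap, against 3.32% of genes higher at 5 days, or 5.24% without library 1.

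**Figure D1:**
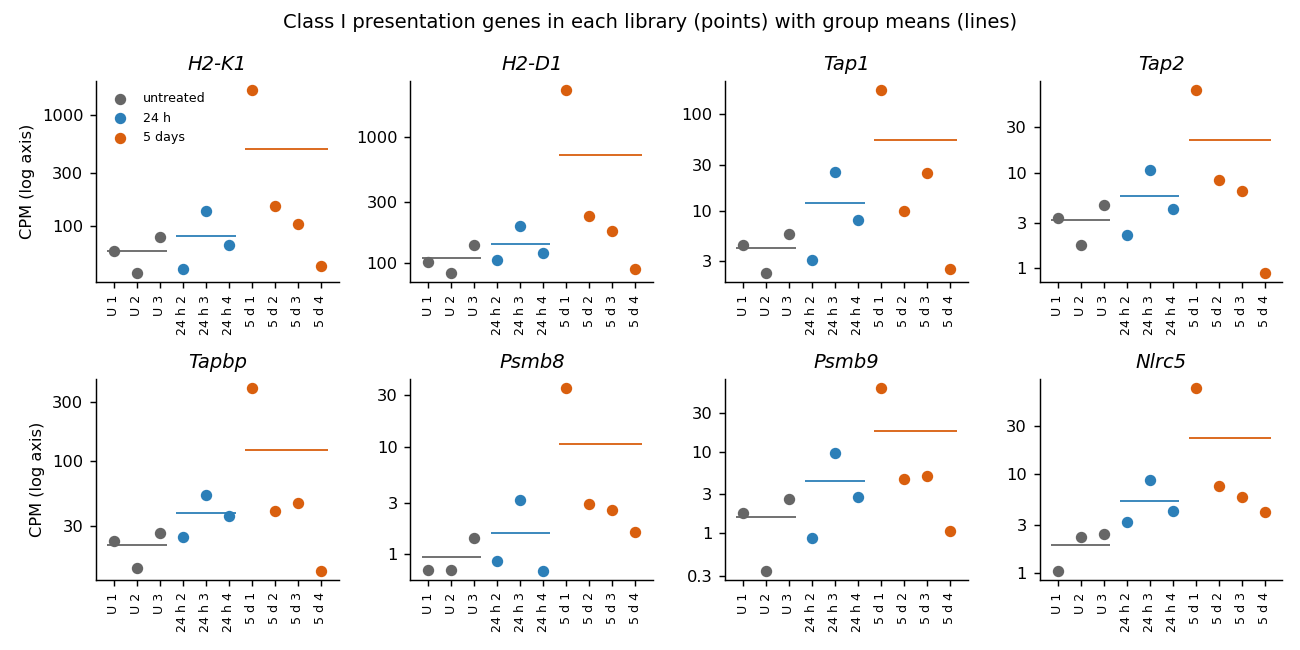
CPM (log axis) of the 8 genes with counts in each library, with points coloured by group (grey untreated, U; blue 24 h; orange 5 days, 5 d) and a line at each group mean. The point of 5-day library 1 is the highest in every panel, 24 h library 3 is the highest at 24 h in every panel, and 5-day library 4 is the lowest 5-day point in every panel.

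The libraries kept nearly the same order from gene to gene. Untreated library 3 was the highest of its group in 8 of 8 genes, 24 h library 3 in 8 of 8 and 5-day library 1 in 8 of 8, while 5-day library 4 was the lowest of its group in 8 of 8. Relative to the untreated mean of each gene, the median over the 8 genes was 0.840-fold in 24 h library 2, 3.38-fold in 24 h library 3 and 1.51-fold in 24 h library 4. At 5 days it was 33.0-fold, 2.60-fold, 2.50-fold and 0.713-fold in libraries 1, 2, 3 and 4. In 24 h library 3 and in 5-day libraries 1, 2 and 3, 8 of the 8 genes exceeded every untreated library. In 5-day library 4 that held for 2 genes, in 24 h library 4 for 4 and in 24 h library 2 for 1.

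The first comparison asks how the genes stood 24 h into treatment. None of the 8 tested genes passed the threshold (adjusted p under 0.05, edgeR's quasi-likelihood test), and 0% of all 14956 genes did. At an unadjusted p under 0.05, 0 of the 8 were higher, against 1.14% of all genes. The largest fitted differences were a log2 fold change of 1.55 ± 1.38 (SE) for Tap1, 1.48 ± 1.47 for Psmb9 and 1.46 ± 1.12 for Nlrc5 (edgeR adjusted p = 0.9997 each). The heavy chains differed least, by 0.46 ± 1.18 for H2-K1 and 0.38 ± 1.05 for H2-D1. All 8 estimates were above 0, with a median of 0.85, against -0.01 over all genes tested. Without 24 h library 3 the median was 0.14, and H2-K1 (-0.12) and Psmb8 (-0.24) lay below 0. The spread estimate is shared by all libraries: without 5-day library 1 it fell from a biological coefficient of variation of 40.8% to 18.9%. Nlrc5 then stood at 1.47 ± 0.46, with an unadjusted p of 0.00841 and an edgeR adjusted p of 0.444. It was the only one of the 8 under an unadjusted 0.05 in that fit, against 4.56% of genes higher, and 0.0136% of 14699 genes were called.

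After 5 days the means of all 8 genes were higher than in untreated tumours, by 5.93-fold for Tapbp to 13.0-fold for Tap1, and most of that difference came from library 1. H2-K1 averaged 492 ± 785 CPM (SD, n = 4) against 59.3 ± 21.2 CPM (n = 3), and without library 1 it averaged 99.9 ± 54.0 CPM. H2-D1 averaged 709.8 ± 1088 CPM against 108 ± 28.7 CPM, and 167 ± 72.4 CPM without library 1. With all libraries, 0 of the 8 genes and 0% of all genes passed the threshold (edgeR adjusted p = 0.538 for each of the 8). At an unadjusted p under 0.05, 7 of the 8 were higher, all but Tap2, against 6.38% of all genes. The fitted log2 fold change was 3.69 ± 1.42 (SE) for Tap1, 3.54 ± 1.13 for Nlrc5, 3.48 ± 1.48 for Psmb9 and 3.47 ± 1.26 for Psmb8. It was 3.05 ± 1.22 for H2-K1, 2.79 ± 1.29 for Tap2, 2.71 ± 1.08 for H2-D1 and 2.56 ± 1.06 for Tapbp. The median was 3.26, against 0.01 over all genes.

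Without 5-day library 1 the median of the 8 estimates was 0.97, and all were still above 0. Nlrc5 and Tap1 were at 1.58 ± 0.46 and 1.58 ± 0.98 (SE), Psmb8 at 1.33 ± 0.62 and Psmb9 at 1.18 ± 0.94. H2-K1 was at 0.76 ± 0.61, Tap2 at 0.71 ± 0.78, Tapbp at 0.67 ± 0.51 and H2-D1 at 0.63 ± 0.40. One gene, Nlrc5, had an unadjusted p under 0.05 (0.00535, edgeR adjusted p = 0.363), against 4.65% of genes higher, and 0% of genes were called. Nlrc5 averaged 5.78 ± 1.66 CPM (SD, n = 3) in 5-day libraries 2 to 4, against 1.92 ± 0.758 CPM untreated, and Psmb8 2.37 ± 0.689 CPM against 0.931 ± 0.401 CPM. Without libraries 1 and 2 the median was 0.72, with Tap1 at 1.70 ± 1.18 (SE), Nlrc5 at 1.36 ± 0.50, Psmb8 at 1.15 ± 0.71, Psmb9 at 0.94 ± 1.11 and Tapbp at 0.51 ± 0.61. H2-K1 was then at 0.31 ± 0.66, H2-D1 at 0.30 ± 0.42 and Tap2 at 0.18 ± 0.87, and 0 of the 8 were called. For Nlrc5 and Psmb8 the difference of means between 5-day libraries 2 to 4 and untreated tumours exceeded the larger of both SDs, and for the other 6 it did not.

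Between 5 days and 24 h the order of the groups rested on library 1. With all libraries, group means ran from low to high in the order untreated, 24 h, 5 days in 8 of 8 genes, and in 5 of 8 without library 1. The difference between 5 days and 24 h was within the larger SD for all 8, with or without that library. Fitted log2 fold changes ran from 1.70 ± 1.01 (SE) for Tapbp to 2.73 ± 1.19 for Psmb8, with a median of 2.11 against 0.03 over all genes. Of the 8 genes 0 were called, as were 0% of all genes (edgeR adjusted p = 0.581 for Psmb8 and 0.594 for Psmb9). Psmb8 alone was under an unadjusted 0.05 by edgeR, against 3.96% of genes higher. Without library 1 the median was 0.07, and Psmb9 (-0.30), Tapbp (-0.20) and Tap2 (-0.13) turned to lower values at 5 days. In that fit 0 of the 8 were under an unadjusted 0.05, against 3.67% of genes higher, and 0% of genes were called.

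**Figure D2:**
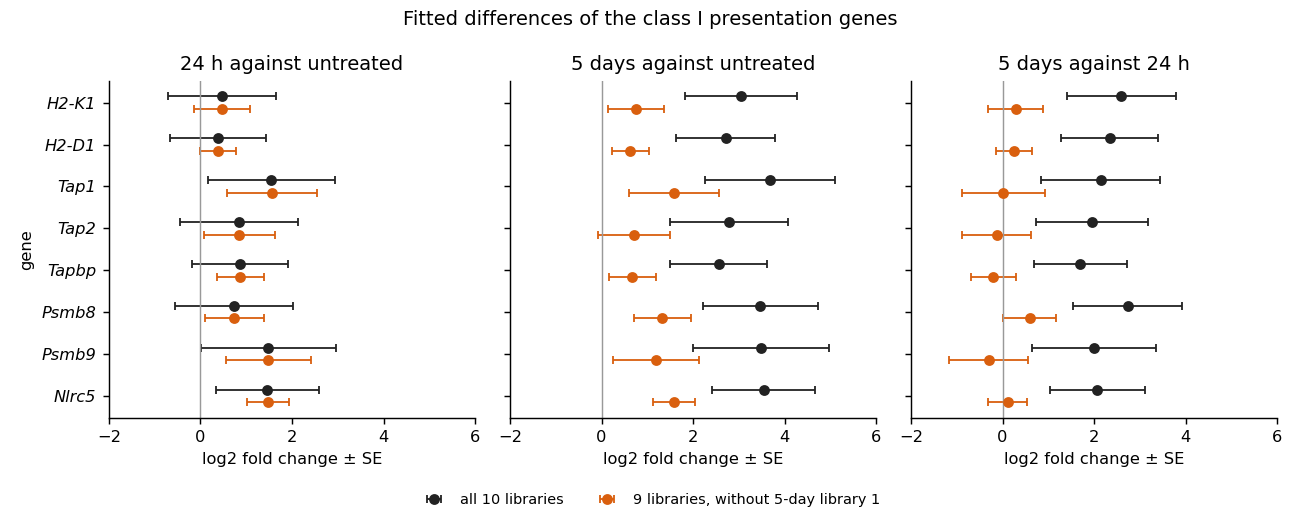
Fitted log2 fold change (x axis) with its SE for each of the 8 genes (y axis) in the 3 comparisons, from all 10 libraries (black) and from the 9 without 5-day library 1 (orange). At 5 days against untreated the black points lie between 2.56 and 3.69 and the orange ones between 0.63 and 1.58, whereas at 24 h both sets nearly coincide and differ in their SE.

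The exchange of proteasome subunits was read as a ratio within each library, which needs no scaling between libraries apart from the added 0.5 CPM. The log2 ratio of Psmb8 to Psmb5 was -5.57, -5.78 and -4.91 in untreated tumours, -5.23, -4.06 and -5.43 at 24 h and -0.70, -3.97, -4.13 and -4.87 at 5 days. All 4 values at 5 days were above the untreated ones, with only 0.04 between the nearest. The mean difference was 2.00, with an exact two-sided permutation p of 0.0571, the smallest that 4 against 3 libraries allow, and an adjusted p of 0.343 over 6 tests. Without library 1 the difference was 1.10 (exact permutation p = 0.1, the smallest for 3 against 3). The log2 ratio of Psmb9 to Psmb6 was -6.42, -7.68 and -5.97 untreated, -6.99, -4.26 and -5.75 at 24 h and -1.65, -5.11, -5.03 and -6.88 at 5 days. Its groups overlapped, and the mean difference between 5 days and untreated tumours was 2.02 (exact permutation p = 0.171, adjusted p = 0.343), or 1.02 without library 1. At 24 h against untreated the difference was 0.51 for Psmb8 to Psmb5 and 1.02 for Psmb9 to Psmb6 (exact permutation p = 0.4 each, adjusted p = 0.48). Between 5 days and 24 h the difference was 1.49 for Psmb8 to Psmb5 (exact permutation p = 0.171, adjusted p = 0.343). For Psmb9 to Psmb6 it was 1.00 (exact permutation p = 0.629), and -0.01 without 5-day library 1. Psmb5 itself ranged from 50.8 to 65.3 CPM and Psmb6 from 172 to 195 CPM over all libraries, so the ratios moved with Psmb8 and Psmb9. Psmb10 to Psmb7 could not be computed.

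**Figure D3:**
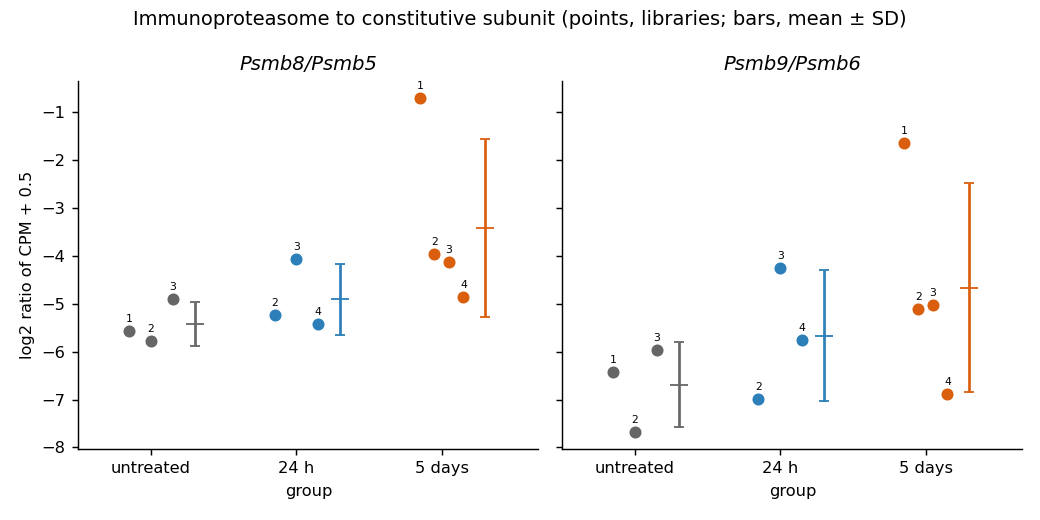
Log2 ratio of CPM + 0.5 (y axis) of Psmb8 to Psmb5 and of Psmb9 to Psmb6 in untreated, 24 h and 5-day tumours. Points are libraries with their number, and bars give the mean ± SD, with 5-day library 1 at -0.70 and -1.65 and every other library at -3.97 or below.

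Other genes of the pathway differed in whether they followed. Of 14 further class I heavy chains, 3 (H2-T10, H2-T23 and H2-T24) were listed at 0 and lie wholly within other genes, and 7 were tested. All 7 had higher estimates at 24 h (median 0.79) and at 5 days (median 3.56, or 0.93 over 6 tested genes without library 1), and 0 were called in each comparison. H2-Q10 and H2-M3, at no more than 0.697 and 1.39 CPM untreated, passed the count filter through treated libraries only, which favours higher estimates. Without 24 h library 3 the 24 h median was 0.17, with 5 higher and 2 lower. H2-T22, a non-classical chain, was at 3.15, 3.67 and 6.10 CPM untreated, at 5.01, 12.9 and 4.53 CPM at 24 h and at 199, 16.7, 8.09 and 3.38 CPM at 5 days, in the library order seen for H2-K1 at 5 days. The H2 genes share sequence with H2-K1 and H2-D1, so their counts are not independent of them. The 5 class I-like chains varied less, with a median of 0.17 at 24 h and of 0.35 at 5 days without library 1 (1.86 with it) and 0 called.

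Further genes that trim peptides or help load them went in both directions. Of 9, Tapbpl was listed at 0, and of the other 8 the estimates were higher for 2 and lower for 6 at 24 h (median -0.20), with 0 called. At 5 days they were higher for 3 and lower for 5, with and without library 1 (medians -0.07 and -0.16). Under an unadjusted 0.05 were 0 at 24 h and 3 at 5 days by edgeR, against 263 and 1257 of all 14956 genes. Without library 1 they were 4 and 5, against 1191 and 1252 of 14699 genes. Those 4 at 24 h were Pdia3, Calr and Canx, which were lower, and Lnpep, which was higher. Lnpep, an aminopeptidase of endosomes, had the smallest p at 5 days and was chosen for mention after its values were seen. It was at 25.7, 26.4 and 28.2 CPM untreated, at 33.5, 35.3 and 33.5 CPM at 24 h and at 174, 43.1, 38.9 and 32.3 CPM at 5 days. Its treated libraries thus lay above all untreated ones at both times, as in 7.11% of genes tested at 24 h and 4.01% at 5 days. Canx, the calnexin chaperone of new heavy chains, was at 478 to 608 CPM untreated, 437 to 489 CPM at 24 h and 448 to 574 CPM at 5 days. Erap1, the peptidase that shortens peptides in the endoplasmic reticulum, was at 5.94 to 8.23 CPM untreated, 7.60 to 10.5 CPM at 24 h and 84.0, 11.0, 11.4 and 7.47 CPM in 5-day libraries 1 to 4. The 15 constitutive proteasome genes summed to 1902 to 2158 CPM over all 10 libraries. Their medians were -0.06 at 24 h and -0.04 at 5 days (-0.08 without library 1), with 0 called. Of the 4 proteasome activators 0 were called. Psme2, a subunit of the interferon-inducible activator, was at 4.01 to 5.60 CPM untreated, 5.01 to 8.73 CPM at 24 h and 20.1, 5.51, 4.99 and 4.80 CPM at 5 days.

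Among 20 regulators of class I transcription, 18 were tested, 0 were called, and the medians were 0.08 at 24 h and 0.22 at 5 days (-0.05 without library 1). Irf2, a DNA-binding member of the interferon regulatory factors, was at 14.5 to 19.1 CPM untreated and at 19.2, 27.6 and 24.0 CPM at 24 h. At 5 days it was at 89.2, 30.5, 22.7 and 22.4 CPM, so that its treated libraries lay above all untreated ones at both times, as for Nlrc5. Each time taken singly, such order was found in 7.11% of genes tested at 24 h and in 4.01% at 5 days, and the share with both was not counted. Irf2 is named because it had the smallest unadjusted p of the 18 at 5 days by edgeR, so its order is no separate support. Irf1, which acts on class I promoters, was at 9.63, 9.25 and 8.71 CPM untreated, 9.32, 23.4 and 11.5 CPM at 24 h and 96.4, 15.3, 16.3 and 6.22 CPM at 5 days. As for the class I genes, 24 h library 3 was the highest at 24 h and 5-day library 4 the lowest at 5 days, but untreated library 3 was the lowest untreated one.

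Interferon response genes had the same libraries on top. Of 21, Cxcl10 and Igtp were listed at 0 and 17 were tested. All 17 estimates were higher at 24 h (median 1.12) and at 5 days (median 3.52), with 0 called, against medians of -0.01 and 0.01 over all genes tested. Some of the 17, such as Cxcl9 and Ifit3, were at no more than 1.39 CPM untreated and passed the count filter through treated libraries only. Such a filter favours higher estimates, so the count of 17 is no support by itself. Without 24 h library 3 the 24 h median was -0.01, with 8 higher and 9 lower, and without 5-day library 1 the 5-day median was 0.91, with 15 higher and 2 lower. Cxcl9, a chemokine induced by interferon-gamma, was at 0.525, 0 and 1.39 CPM untreated, at 0, 25.8 and 0.523 CPM at 24 h and at 34.3, 4.14, 23.6 and 0 CPM at 5 days. Iigp1, an interferon-inducible GTPase, was at 0.700, 1.05 and 3.83 CPM untreated, at 0.173, 33.5 and 1.57 CPM at 24 h and at 163, 7.24, 24.9 and 0.889 CPM at 5 days. Ifng, the ligand, was at 0.873 CPM in 5-day library 1 and at 0 CPM in the other 9 libraries, and Ifnb1 was listed at 0 in all 10, with no other gene over its exons. An Ifng level under 3 counts in a library could not be detected at this depth.

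The markers of cell types that express class I strongly moved with the genes in part. The summed CPM of the class I presentation genes was 0.976-fold, 0.710-fold and 1.31-fold of the untreated mean in untreated libraries 1 to 3, 0.903-fold, 2.22-fold and 1.22-fold at 24 h and 24.1-fold, 2.29-fold, 1.86-fold and 0.784-fold at 5 days. The macrophage sum, over 15 of 16 markers with counts (Itgam was listed at 0), was 0.715-fold to 1.22-fold untreated, 1.49-fold, 1.89-fold and 1.75-fold at 24 h and 16.9-fold, 2.01-fold, 1.97-fold and 1.20-fold at 5 days. In CPM the macrophage sum ranged from 618 to 1053 untreated, from 1288 to 1631 at 24 h and from 1037 to 14608 at 5 days, led by Lyz2. The 8 T cell markers summed to 7.68 to 10.9 CPM untreated, 12.1 to 16.7 CPM at 24 h and 10.7 to 96.4 CPM at 5 days, led by Cd4. Cd8a, the co-receptor that binds class I, was at no more than 0.350 CPM untreated and 2.84 CPM anywhere. The 6 dendritic cell markers summed to 9.08 to 19.4 CPM untreated, 11.7 to 22.2 CPM at 24 h and 8.35 to 253 CPM at 5 days, led by Itgax. Markers of NK and cytotoxic cells were at 0 to 1.05 CPM untreated, 0.173 to 1.57 CPM at 24 h and 0 to 44.3 CPM at 5 days. The 7 endothelial markers summed to 70.2 to 147 CPM untreated, 61.8 to 143 CPM at 24 h and 33.1 to 531 CPM at 5 days. The part of these cells in the class I values was not tested.

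Within single groups some lists differed between libraries and others did not. At 24 h, libraries 3 and 4 had nearly the same macrophage sum (1631 and 1515 CPM), fibroblast sum (1782 and 1838 CPM) and T cell sum (15.5 and 16.7 CPM). Most of the T cell sum came from Cd4 (8.91 and 10.3 CPM) and Lck (4.89 and 5.23 CPM). The other T cell markers were at 0.697 CPM or below in both, too few counts to compare T cell content. In library 3 the class I presentation genes were 1.83 times and the interferon response genes 3.16 times as high as in library 4. Other marker sums were higher in library 3 as well, by 1.44 times for endothelial, 1.50 times for dendritic cell, 1.65 times for adipocyte and 2.32 times for hepatocyte markers. Hp made up nearly all of the hepatocyte sum, at 108 CPM in library 3 and 46.0 CPM in library 4. The other hepatocyte markers were at 0.523 CPM or below in both. NK and cytotoxic markers stood at 1.57 against 0.174 CPM, while B cell markers were lower, at 1.57 against 3.83 CPM. This is 1 pair of libraries, and the part of these cells in the difference was not tested. At 5 days, libraries 2 and 3 had like macrophage sums (1734 and 1699 CPM) and like class I sums (458 and 371 CPM), while adrenal cortex markers summed to 1616 CPM in library 2 and to 95.8 CPM in library 3. 5-day library 4 had the smallest class I sum of its group (157 CPM), with 1037 CPM of macrophage, 209.9 CPM of fibroblast and 2559.8 CPM of adrenergic markers. Divided by the macrophage sum of the same library, the class I sum was 0.185, 0.230 and 0.286 untreated, 0.140, 0.272 and 0.160 at 24 h and 0.330, 0.264, 0.219 and 0.151 at 5 days, so these quotients overlapped between groups. Divided by the endothelial sum, the class I sum was 1.33, 2.02 and 2.66 untreated, 2.92, 3.11 and 2.46 at 24 h and 9.08, 3.36, 4.05 and 4.74 at 5 days, where all 5-day libraries lay above both other groups. The nearest values were 3.36 and 3.11. In 5-day library 4 the quotient of 4.74 went with a low endothelial sum (0.314-fold of the untreated mean), while its class I sum was 0.784-fold. Divided by the dendritic cell, T cell or fibroblast sum, the class I sum overlapped between groups.

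**Figure D4:**
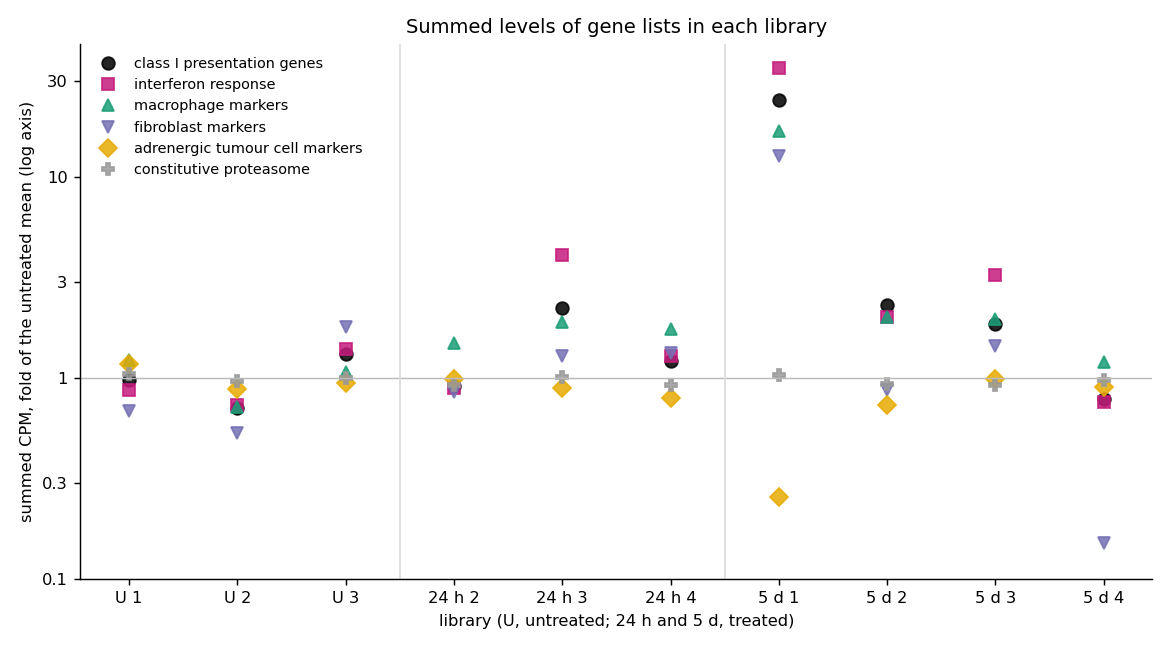
Summed CPM of 6 gene lists in each library, as a fold of the untreated mean of the list (log axis), with vertical lines between groups. 5-day library 1 holds 24.1-fold class I presentation genes, 34.8-fold interferon response genes, 16.9-fold macrophage markers and 0.254-fold adrenergic markers, and the constitutive proteasome stays between 0.919-fold and 1.04-fold in all libraries.

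The genes whose profile over the libraries was nearest to that of the 8 genes were sought among other genes with a mean of at least 5 CPM, 12502 over 10 libraries and 12023 over 9. Likeness was the root mean square difference of log2 (CPM + 0.5), each centred on its own mean. Over 10 libraries the nearest were Olfr56 (0.21), Epsti1 (0.24), Bst2 (0.26), Ctss (0.28) and Gbp7 (0.29), against a median of 1.50 over the genes compared. Over the 9 libraries without 5-day library 1 they were Bst2 (0.23), Xaf1 (0.25), Parp14 (0.26), Gbp7 (0.28) and Ctss (0.29), against a median of 0.77. Olfr56 and Epsti1 reached the mean of 5 CPM through 5-day library 1 (41.7 and 45.4 CPM) and were at no more than 3.67 and 3.14 CPM in any other library, so they were compared over 10 libraries and not over 9. Bst2, Gbp7 and Ctss were among the nearest both times. Ctss, a cathepsin, is also one of the macrophage markers, and Bst2 and Xaf1 are on the interferon response list. The span of Olfr56 encloses interferon-inducible GTPase genes, Ifi47, Tgtp1 and Tgtp2, which were listed at 0. Among the class I genes themselves, H2-K1 was nearest to the mean of the others (0.24), and Tap1 (0.55) and Nlrc5 (0.54) were farthest.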

How the data were processed

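Counts per Ensembl gene, 1 column per library, were used as deposited by the authors, and all 10 columns were matched to samples by the labels. Per the submitters' processing notes, the build was mm10 and the tools included TopHat2 2.1.1, HISAT2 and edgeR. The sources used here do not name the counter, the annotation it used, its strand setting or its rule for overlapping genes. Symbols, coordinates and overlaps were taken from GENCODE M21, which named 54409 of 54446 identifiers. The other 37 held at most 0.0041% of a library.

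Genes with low counts were removed with filterByExpr (minimum count 10, minimum total 15), leaving 14956. TMM factors were 0.812 for 5-day library 1 and 1.001 to 1.039 elsewhere. edgeR 4.0.16 in R 4.3.3 fitted 1 mean per group to all 10 libraries (robust quasi-likelihood F test), with Benjamini-Hochberg adjustment over all genes tested and a threshold of 0.05. CPM use scaled library sizes. Ratios of subunits were compared by exact two-sided permutation of log2 (CPM + 0.5). The planned test of Psmb10 to Psmb7 was not possible, which left 6 tests. Likeness of profiles used Python 3.11.15, and plots matplotlib 3.10.9. On simulated data with 200 changed genes the 5-day fit recovered 65% of 4-fold and 11% of 2-fold changes among 14792 genes with the spread of all 10 libraries, and 79% and 49% among 14477 genes with that of 9. False calls numbered 4 and 7. The simulation gave every library the same spread for a gene, whereas in the data 5-day library 1 alone stood far apart. These rates therefore need not hold for the real libraries. Counting limits cover counting error only.

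Alternatives were a fit with DESeq2 1.42.0, edgeR with DESeq2 size factors, all genes unfiltered, genes with a mean of 5 CPM or more, only the groups compared, replicate number as a block, limma 3.58.1 voom with quality weights, and libraries left out. The genes, lists and alternatives were chosen with earlier results of these data known. Named genes were the 10 genes of the set, up to 4 of each pathway list with the smallest p in a comparison, and the 5 nearest profiles. Ifng, Ifnb1, Cd8a, genes listed at 0 and genes enclosed by Olfr56 were chosen after their values were seen. Some genes that this rule names are left out of the text.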

Additional observations from a re-analysis of the deposited data

Results flagged for a closer look

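In the 5-day group of 4 libraries, library 1 was farther from the nearest other library than Dixon's 95% criterion for 4 values allows (its gap as a share of the group's range) for all 8 genes with counts, in CPM. For the 2 subunit ratios, taken as log2 values, it was not. The scales differ, so genes and ratios cannot be set against each other here. Its values were 1667 CPM for H2-K1, 2339.6 CPM for H2-D1, 178 CPM for Tap1, 73.5 CPM for Tap2, 394 CPM for Tapbp, 73.1 CPM for Nlrc5, 35.3 CPM for Psmb8 and 60.7 CPM for Psmb9. The gap over range was lowest for Tap1 (0.875) and highest for Psmb8 (0.961). Chance would flag about 1 in 20 groups, and the 8 genes are not independent, since the same library is high in each.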

How the results depend on the processing

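In all settings run, 0 of the tested genes among the 8 were called in each of the 3 comparisons. Psmb8 was not tested with the filter at 5 CPM, nor at 24 h with only the groups compared, and DESeq2 gave no adjusted p for Nlrc5 and Psmb8. The number of genes called was 0 in each comparison with all libraries, with 263, 1257 and 942 genes under an unadjusted 0.05 at 24 h, at 5 days and between 5 days and 24 h. At 24 h it was 7 with only the groups compared, 3 with voom and quality weights, 0 to 2 with each library left out in turn (2 without 5-day library 1) and 3 without 5-day libraries 1 and 2. DESeq2 called 21 genes at 5 days and 3 between 5 days and 24 h, where leaving out 5-day libraries 1 and 2 gave 2. The cause was not tested. The refits counted next share libraries, and the 8 genes vary together, so these tallies are not separate checks. No refit left out 5-day libraries 1, 2 and 3 together, and 5-day library 4 had a median of 0.713-fold of the untreated mean. At 5 days against untreated the fitted differences of the 8 genes stayed above 0 in 151 of 151 refits (smallest adjusted p 0.145, DESeq2). At 24 h 148 of 150 did, the exceptions being H2-K1 (-0.12) and Psmb8 (-0.24) without 24 h library 3, whose highest values with 1 library left out were 0.78 and 1.14. Between 5 days and 24 h, 15 of 151 turned negative, all in settings that drop 5-day library 1 or weight libraries by quality. Without it they were Psmb9 (-0.30), Tapbp (-0.20) and Tap2 (-0.13), whose highest values with 1 library left out were 3.26, 2.08 and 2.78, with voom Tapbp (-0.09) and Tap2 (-0.06), and without 5-day libraries 1 and 2 Tap2 (-0.65), Psmb9 (-0.54), Tapbp (-0.35), H2-K1 (-0.15), Nlrc5 (-0.10) and H2-D1 (-0.07). Same-numbered libraries deviated with correlations of -0.39 to 0.25 across genes, and differently numbered ones with -0.55 to 0.49. These values cannot show whether same-numbered libraries share more than a number, and the labels do not say. With the replicate block 0 genes were called in each comparison, and with the block and without 5-day library 1 Tapbp (-0.28), Tap2 (-0.21), Tap1 (-0.02) and Psmb9 (-0.01) were negative between 5 days and 24 h. The Psmb9 to Psmb6 ratio differed between 5 days and 24 h by -0.01 to 1.74 with 1 library left out, -0.01 without 5-day library 1. At this depth Psmb8 and Psmb9 rest on few counts outside 5-day library 1.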
